A study of Homo sapiens with 6 samples.

Results

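The pocket proteins, the MuvB core and its activators are encoded by 10 genes, which were chosen by name from what is known of these complexes, with no threshold on their values, though with earlier results of these samples known. They are the pocket protein genes RB1, RBL1 and RBL2, the MuvB core genes LIN9, LIN37, LIN52, LIN54 and RBBP4, and the activator genes MYBL2 and FOXM1. They make up 10 of the 60666 genes that the deposited table lists on the primary chromosome sequences of GRCh38, and all 10 passed the filter on low values, which 12025 genes passed. RNA was sequenced from the RPE1 line called hTERT-RPE1-TOShOFD1, human retinal pigment epithelial cells immortalized with telomerase. By the labels and the series' design text, every sample carried a lentivirus-delivered Tet-On cassette whose short hairpin RNA against OFD1 is switched on by doxycycline. The 3 control samples, with the genotype labelled WT, received no doxycycline, and the 3 OFD1-depleted samples received 200 ng/mL doxycycline for 72 h. The groups therefore differed in the drug as well as in the hairpin, a line with another inducible hairpin was not analysed here, and whether the line is a single clone is not given in the sources used here. The study calls its RNA-seq samples biological replicates, the labels do not say that they are separate cultures, and p-values measure the spread between these samples.

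Pocket proteins restrain the cell cycle by binding E2F transcription factors. RB (the product of RB1) mainly holds the activator E2Fs, whereas p107 (RBL1) and p130 (RBL2) join E2F4 or E2F5, a DP partner and the MuvB core to form DREAM, a repressor complex of quiescent and early G1 cells. When cells return to the cycle, cyclin-dependent kinases release the pocket protein, and the same MuvB core binds B-MYB (MYBL2) and then FOXM1 to activate genes of G2 and mitosis. Several of these regulators are themselves transcribed under E2F control. The study asked what OFD1 depletion does to the cell cycle of RPE1 cells, and the comparison below asks how the transcripts of this regulatory module differed between control and OFD1-depleted cells.

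The promoters of the 10 genes were read for the letters through which these complexes reach DNA, since a gene can be both a part of the machinery and a gene with such letters at its start. RefSeq promoter sequences on GRCh38.p14, from 250 bases before to 50 bases after each start, were given for 9 of the 10 genes in 15 entries, with none for FOXM1. The motifs searched on both strands were the E2F letters (TTCCCGC or TTGGCGC or TTCGCGC or TTGCCGC), the CHR element TTTGAA or TTCGAA, which LIN54 contacts, and the Y-box CCAAT. Of all 35116 promoters of this length, 13.0% held an E2F match, 16.4% a CHR match and 34.6% a CCAAT match. RBL1 held 2 E2F matches, TTCGCGC 25 bases and TTGGCGC 15 bases before its start. LIN52 held TTCCCGC 24 bases before its start. An entry of RBBP4 held TTGGCGC 43 bases before its start, overlapped by TTCGCGC on the other strand at 40 bases. LIN9 held CHR letters in an entry, 60 and 3 bases before the start, and E2F letters in another, 7 bases before. These entries start 705 and 366 bases inside the gene. The LIN9 entry nearest the start of the gene, 102 bases inside, held none of the letters searched. Both entries of LIN54 held the same TTTGAA, 100 or 89 bases before the start. MYBL2 held none of the letters searched in this window. Only these exact letters were searched, and its window holds TTGGCGG, which differs from TTGGCGC in the last letter. The entry for RB1 starts 172706 bases inside the gene, so it does not cover the start of the whole gene. Nor do the LIN54 entries (2103 and 2092 bases inside), the RBL2 entries (494 and 1642), an entry of LIN37 (453) or the LIN9 entries with matches. RBL2 held TTTGAA 24 bases after a start and CCAAT 30 bases before another, and LIN37 held CCAAT 87 bases before a start and TTTGAA 182 bases before another. CCAAT also lay 246 bases before the start of LIN52. RBBP4 held it 105 and 54 bases before a start and 202 bases before another. These matches describe the reference sequence and are not measured sites. The stretches from 100 bases before to 50 bases after the start are printed for the 4 genes with E2F matches and for LIN54, to set 3 genes that fell beside LIN52 and RBBP4, which did not pass the test. Each is written 5′ to 3′ on the strand of its gene, with the E2F or CHR letters in capitals.
RBL1, chr20:37095948-37096097, minus strand: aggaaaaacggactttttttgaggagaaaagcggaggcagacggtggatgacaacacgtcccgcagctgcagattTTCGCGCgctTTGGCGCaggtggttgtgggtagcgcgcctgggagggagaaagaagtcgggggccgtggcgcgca
LIN9 CHR entry, chr1:226309115-226309264, minus strand: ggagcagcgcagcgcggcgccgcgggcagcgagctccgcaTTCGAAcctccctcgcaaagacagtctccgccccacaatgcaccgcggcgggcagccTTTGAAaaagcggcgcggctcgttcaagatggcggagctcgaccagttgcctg
LIN9 E2F entry, chr1:226309454-226309603, minus strand: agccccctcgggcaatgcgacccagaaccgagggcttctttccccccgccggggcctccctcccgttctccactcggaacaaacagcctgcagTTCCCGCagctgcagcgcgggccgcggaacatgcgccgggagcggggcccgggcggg
LIN52, chr14:74084856-74085005, plus strand: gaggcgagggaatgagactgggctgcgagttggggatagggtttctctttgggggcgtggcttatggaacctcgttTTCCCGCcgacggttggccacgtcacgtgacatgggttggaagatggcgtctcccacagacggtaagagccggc
LIN54, chr4:83010785-83010934, minus strand: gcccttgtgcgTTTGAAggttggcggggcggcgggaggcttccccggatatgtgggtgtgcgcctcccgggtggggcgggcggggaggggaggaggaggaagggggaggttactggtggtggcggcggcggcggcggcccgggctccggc
RBBP4, chr1:32651108-32651257, plus strand: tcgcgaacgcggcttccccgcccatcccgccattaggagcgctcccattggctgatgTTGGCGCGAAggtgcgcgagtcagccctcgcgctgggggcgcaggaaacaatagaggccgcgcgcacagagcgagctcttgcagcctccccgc

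Levels are given in FPKM, fragment numbers corrected for transcript length and library size, as the authors deposited them. OFD1, the target of the hairpin, had 3.34, 3.62 and 3.44 FPKM in the control samples and 0.795, 0.763 and 1.43 FPKM in the OFD1-depleted samples, so it was lower in each OFD1-depleted sample, as its labels say. The FPKM summed over all genes lay between 408302 and 414547 in the control samples and between 433262 and 493510 in the OFD1-depleted samples, with OFD1-depleted replicate 2 the highest. The table holds no read counts, and depth is unknown here. Of 6 markers of epithelial and RPE lines, 5 had a mean of at least 1 FPKM, the exception being KRT19, whereas none of 5 markers of mature pigment epithelium did. The summed level of those 5 reached 4.83 FPKM in OFD1-depleted samples, of which BEST1 made up 4.33 FPKM in replicate 2. The photoreceptor markers CRX, RCVRN and PDE6B were listed at 0 in all 6 samples, although the labels name the tissue as retina. PTPRC and the endothelial markers stayed near 0 and CDH5 was listed at 0, whereas CD68, which other cells with lysosomes also express, gave nearly all of the 31.5 to 40.7 FPKM of the immune list. Over the 12025 genes tested by limma with Benjamini-Hochberg adjustment at 0.05, 11.9% were lower and 5.07% higher in OFD1-depleted samples. The groups did not overlap, with all OFD1-depleted values lower, for 22.3% of the genes, and with all of them higher for 13.8%. The lower calls made up 70.1% of all calls as deposited, 88.1% after scaling to the same total, 60.3% after median-of-ratios scaling, 57.2% with array weights and 54.9% after quantile normalization, and the median log2 fold change of all genes was -0.03 as deposited and -0.18 after scaling to the same total.

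Of the 10 genes, 6 were lower in OFD1-depleted samples and none was higher, against 11.9% and 5.07% of all genes tested. RBL1 and LIN9 fell furthest, RB1, LIN54, FOXM1 and MYBL2 fell to between 50.6% and 55.9% of control, and RBL2, LIN52, LIN37 and RBBP4 did not pass the test. By role, 2 of the 3 pocket protein genes, 2 of the 5 core genes and both activator genes were lower. The median log2 fold change of the 10 genes was -0.86, beside -0.03 for all genes tested. The groups did not overlap for 8 of the 10, all lower, against 22.3% of all genes tested, the others being LIN37 and RBBP4. In bulk RNA, fewer cells of a cycling state and less RNA per cell cannot be told apart.

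**Figure D1:**
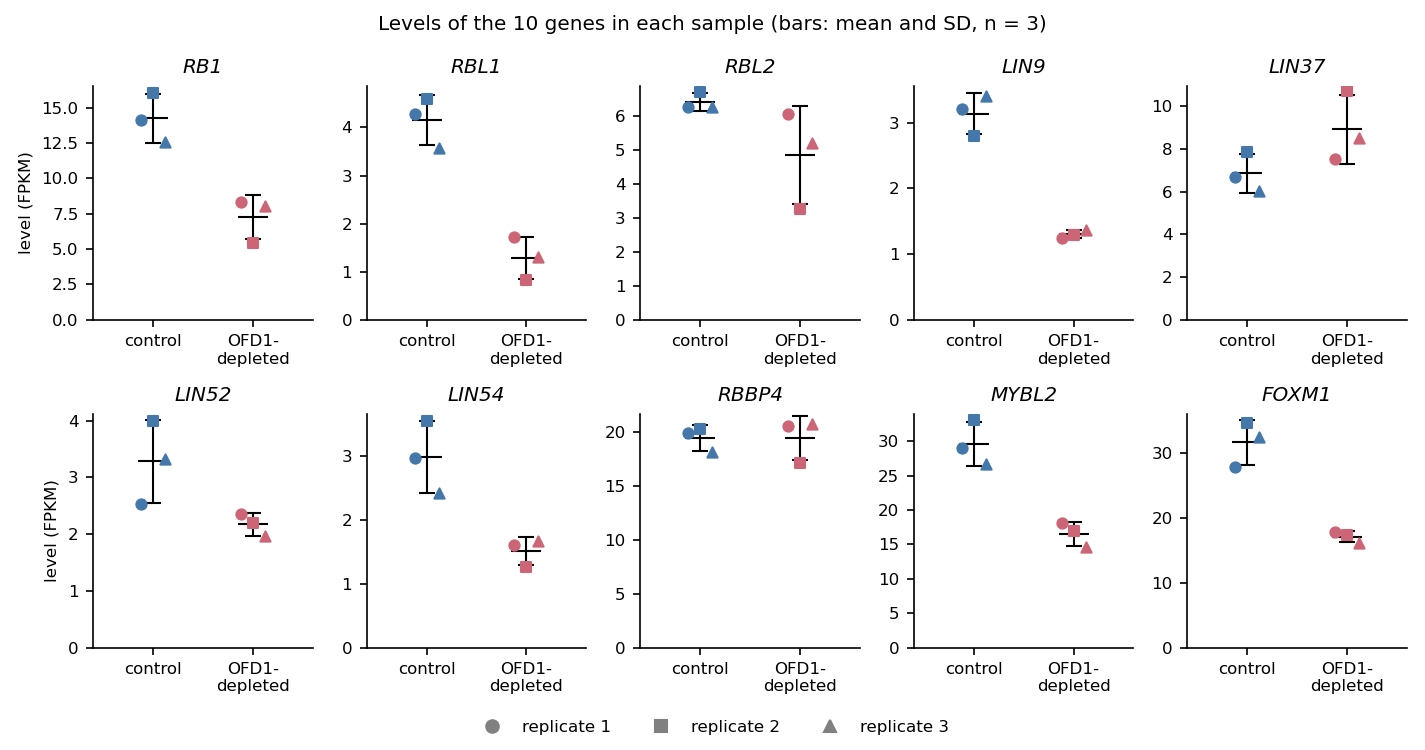
Levels of the 10 genes in FPKM (vertical axes, each from 0) in the 3 control and 3 OFD1-depleted samples, with circles, squares and triangles for replicates 1, 2 and 3 and bars for the mean and SD. The groups are separated in 8 panels and overlap for LIN37 and RBBP4, and OFD1-depleted replicate 2 lies lowest for RB1, RBL1, RBL2, LIN54 and RBBP4.

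Among the pocket proteins, RB1 and RBL1 transcripts fell, and RBL2 did not pass the test. RB1 encodes RB, the pocket protein of the activator E2Fs (ENSG00000139687, GRCh38 chromosome 13 from 48303744 to 48599436, plus strand). Its level was 14.1, 16.0 and 12.6 FPKM in the control samples and 8.3, 5.44 and 8.05 FPKM in the OFD1-depleted samples. Every OFD1-depleted sample lay under every control sample, with replicate 2 well below the other two. The mean went from 14.2 ± 1.7 to 7.26 ± 1.58 FPKM (SD, n = 3 each), 51.0% of control. On the log2(FPKM + 0.1) scale, which every fold change here uses, the change was -0.98 with a standard error of 0.178 and a 95% interval of -1.37 to -0.59 (limma, adjusted p = 0.00343).

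RBL1 encodes p107, a pocket protein that rises when cells cycle and is itself a classical E2F target (ENSG00000080839, chromosome 20 from 36996349 to 37095997, minus strand). It had 4.27, 4.6 and 3.58 FPKM in the controls and 1.72, 0.834 and 1.3 FPKM in OFD1-depleted samples, so the highest OFD1-depleted value lay far under the lowest control value. This was the lowest pocket protein transcript in every sample and the gene of the 10 with the largest fall. The mean went to 1.28 ± 0.445 from 4.15 ± 0.521 FPKM (SD, n = 3 each), or 31.0% of control, for a log2 fold change of -1.66 with a standard error of 0.254 and a 95% interval of -2.22 to -1.10 (limma adjusted p = 0.00118).

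RBL2 encodes p130, the usual pocket protein of DREAM in quiescent cells (ENSG00000103479, chromosome 16 from 53433977 to 53491648, plus strand). Control samples had 6.26, 6.72 and 6.27 FPKM, and OFD1-depleted samples 6.07, 3.26 and 5.22 FPKM. The groups did not overlap, but OFD1-depleted replicate 1 lay just under the lowest control and replicate 2 far under it. The means were 6.42 ± 0.261 and 4.85 ± 1.44 FPKM (SD, n = 3 each), and the log2 fold change of -0.44 had a 95% interval of -0.90 to 0.02 (limma, adjusted p = 0.18). Without OFD1-depleted replicate 2 the value was -0.18 (adjusted p = 0.313). RBL2 overlaps AKTIP on the opposite strand, which had a mean of 11.3 FPKM in the controls and 13.7 FPKM in OFD1-depleted samples. The labels name a directional library kit beside another RNA kit, and the strand setting of the counting is not given in the sources used here, so reads of the overlap may be shared.

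The 3 pocket protein transcripts together gave 24.6, 27.3 and 22.5 FPKM in the control samples and 16.1, 9.53 and 14.6 FPKM in the OFD1-depleted samples. Their proportions were compared within samples, where a factor common to a sample cancels. In the log2 ratios it cancels only approximately, since 0.1 FPKM was added to each level. The log2 ratio of RBL2 to RBL1 was 0.54, 0.54 and 0.79 in control and 1.76, 1.85 and 1.93 in OFD1-depleted samples, so p130 transcripts exceeded p107 transcripts in all 6 samples and by more after depletion. The mean ratio went from 0.62 ± 0.15 to 1.84 ± 0.08 (SD, n = 3 each), a difference of 1.22 that lay between 1.18 and 1.31 with any sample left out. It depended more on the value added, and was 0.81 with 1 FPKM added and 1.29 with 0.01 FPKM. The log2 ratio of RB1 to RBL2 was 1.16, 1.24 and 1.0 in control and 0.45, 0.72 and 0.62 in OFD1-depleted samples, a difference of -0.54. Neither ratio overlapped between the groups (two-sided exact permutation test, p = 0.1 for each, the smallest that 3 samples against 3 allow). By share of the summed pocket protein FPKM, an outcome added after the values were seen, RBL1 went from 16.7% ± 0.708 to 9.45% ± 1.09, RBL2 from 26.0% ± 1.72 to 35.9% ± 1.77 and RB1 from 57.3% ± 1.2 to 54.6% ± 2.79 (SD, n = 3 each). RB1 therefore stayed the most abundant of the 3 transcripts, and RBL2 and RBL1 kept the second and the last place in all samples.

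In the MuvB core, LIN9 and LIN54 fell, LIN52 and LIN37 lay on opposite sides of 0 without passing the test, and RBBP4 hardly moved. LIN9 encodes a core subunit that links the complex to B-MYB (ENSG00000183814, chromosome 1 from 226231149 to 226309869, minus strand). Its level was 3.21, 2.8 and 3.41 FPKM in the controls and 1.25, 1.29 and 1.37 FPKM in OFD1-depleted samples. These 3 OFD1-depleted values lay closer together than those of any other gene of the 10. The mean fell to 41.5% of control, from 3.14 ± 0.31 to 1.3 ± 0.0585 FPKM (SD, n = 3 each), with a log2 fold change of -1.20 (standard error 0.197, limma adjusted p = 0.00178).

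LIN54 encodes the subunit that binds the CHR element (ENSG00000189308, chromosome 4 from 82909973 to 83012926, minus strand). It had 2.97, 3.54 and 2.42 FPKM in the control samples and 1.6, 1.26 and 1.66 FPKM in the OFD1-depleted samples. The groups did not overlap, and the controls spread more widely than the OFD1-depleted samples. The mean went from 2.98 ± 0.561 to 1.51 ± 0.218 FPKM (SD, n = 3 each), for a log2 fold change of -0.93 (standard error 0.22, limma adjusted p = 0.0144). This call did not hold without control replicate 1 (adjusted p = 0.0557), without control replicate 2 (adjusted p = 0.068) or with no filter on low values (adjusted p = 0.0712), where the log2 fold change was -0.93, -0.80 and -0.93.

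LIN52 encodes the small subunit whose phosphorylation by DYRK1A favours DREAM over the B-MYB form (ENSG00000205659, chromosome 14 from 74084796 to 74201235, plus strand). It had 2.53, 4.0 and 3.32 FPKM in the controls and 2.36, 2.19 and 1.96 FPKM in OFD1-depleted samples. Control replicate 1 lay close to the OFD1-depleted values and control replicate 2 well above them. The log2 fold change of -0.56 had a 95% interval of -1.01 to -0.10 (limma, adjusted p = 0.0925), and the adjusted p was 0.0499 after scaling to the same total.

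LIN37 encodes the core subunit needed for repression by DREAM (ENSG00000267796, chromosome 19 from 35748361 to 35754519, plus strand). It was the only gene of the 10 with a fold change above 0, at 6.69, 7.83 and 6.02 FPKM in the controls and 7.52, 10.7 and 8.51 FPKM in OFD1-depleted samples. Control replicate 2 lay above OFD1-depleted replicate 1, so the groups overlapped (exact permutation test, p = 0.2). The means were 6.85 ± 0.911 and 8.9 ± 1.61 FPKM (SD, n = 3 each), with a log2 fold change of 0.37 (95% interval 0.00 to 0.73, limma adjusted p = 0.163). LIN37 overlaps AD000671.1 on the same strand, whose mean was 1.42 FPKM in the controls and 0.938 FPKM in OFD1-depleted samples, so some of its reads are uncertain. The log2 ratio of LIN37 to LIN9, a pair picked after the values were seen as the extremes of the core, was 1.04, 1.45 and 0.8 in control and 2.49, 2.96 and 2.55 in OFD1-depleted samples, and is given as a description.

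RBBP4 encodes a WD40 histone chaperone that also serves CAF-1, PRC2, NuRD and SIN3 complexes (ENSG00000162521, chromosome 1 from 32651142 to 32686211, plus strand). It had 19.9, 20.3 and 18.1 FPKM in the controls and 20.5, 17.1 and 20.7 FPKM in OFD1-depleted samples, so OFD1-depleted replicates held both the highest and the lowest value. The log2 fold change was -0.005, with a 95% interval of -0.29 to 0.28 (limma, adjusted p = 0.985), and its sign turned with the scaling. RBBP4 was the most abundant core transcript in all samples. Its 6 named pseudogene copies together reached at most 2.58 FPKM in a sample, and SYNC, which overlaps it on the opposite strand, had means of 17.9 and 17.1 FPKM.

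Both activator genes fell, and no OFD1-depleted value of either reached a control value. MYBL2 encodes B-MYB, an E2F target that joins the MuvB core in S phase (ENSG00000101057, chromosome 20 from 43667019 to 43716495, plus strand). Its level was 29.1, 33.1 and 26.7 FPKM in the controls and 18.1, 16.9 and 14.7 FPKM in OFD1-depleted samples, with a clear gap between the groups. The mean went from 29.6 ± 3.25 to 16.6 ± 1.68 FPKM (SD, n = 3 each), 55.9% of control, for a log2 fold change of -0.83 (standard error 0.138, limma adjusted p = 0.00186).

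FOXM1 encodes the forkhead factor that drives genes of G2 and mitosis together with MuvB and B-MYB (ENSG00000111206, chromosome 12 from 2857680 to 2877174, minus strand). It had 27.8, 34.6 and 32.4 FPKM in the controls and 17.8, 17.4 and 16.1 FPKM in OFD1-depleted samples. The OFD1-depleted values lay close together and under every control value. The mean went to 17.1 ± 0.874 from 31.6 ± 3.49 FPKM (SD, n = 3 each), 54.0% of control, with a log2 fold change of -0.88 (standard error 0.131, limma adjusted p = 0.00099). FOXM1 overlaps RHNO1 on the opposite strand, which had a mean of 14.7 FPKM in the controls and 11.0 FPKM in OFD1-depleted samples (log2 fold change -0.41, limma adjusted p = 0.081).

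The log2 ratio of the activators to the MuvB core, each taken as the mean over its genes on the log2 scale, was 2.47, 2.53 and 2.54 in control and 2.21, 2.18 and 1.98 in OFD1-depleted samples. The groups did not overlap, and the mean difference of -0.39 lay between -0.44 and -0.32 with any sample left out (exact permutation test, p = 0.1, the smallest possible with all 6 samples). With 1 FPKM added to each level in place of 0.1 the difference was -0.5, and with 0.01 FPKM it was -0.37. The core mean holds LIN37 and RBBP4 beside LIN9 and LIN54, whose log2 fold changes were -1.20 and -0.93 beside -0.83 for MYBL2 and -0.88 for FOXM1. In control samples the order of levels ran from FOXM1 and MYBL2, which did not differ beyond their spread, through RBBP4 and RB1 to LIN37 and RBL2, which lay within their spread of each other, and then RBL1, LIN52, LIN9 and LIN54, whose neighbours lay within their spread of each other. In OFD1-depleted samples RBBP4 had the highest mean at 19.4 ± 2.02 FPKM (SD, n = 3), beside FOXM1 and MYBL2 at 17.1 and 16.6 FPKM, and RBL1 and LIN9 the lowest at 1.28 and 1.3 FPKM.

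**Figure D2:**
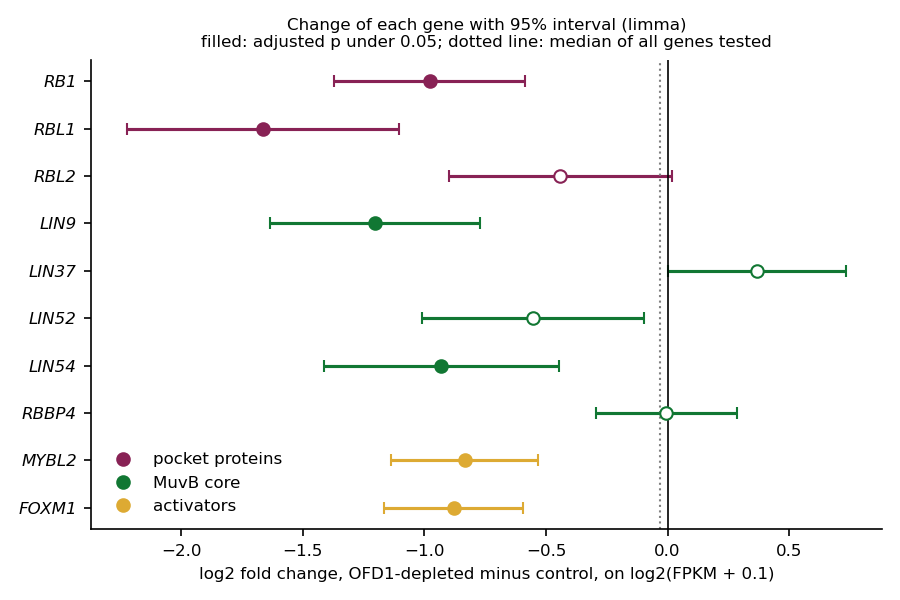
Log2 fold change of each gene, OFD1-depleted minus control on log2(FPKM + 0.1) (horizontal axis), with 95% intervals from limma, coloured by role and filled where the adjusted p was under 0.05. The 6 filled points, from RBL1 at -1.66 to MYBL2 at -0.83, lie left of the median of all genes (dotted line), and LIN37 at 0.37 is the only point on the right of 0.

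Replicates of a group moved the genes together in part. Control replicate 2 was the highest control for 9 of the 10 genes and the lowest for LIN9, and it also had the smallest mitochondrial share of summed FPKM, 8.66% against 13.07% and 13.81% in the other controls. That share was 15.61%, 16.29% and 19.32% in the OFD1-depleted samples, above every control, and with scaling to totals without mitochondrial genes RB1, RBL1, LIN9, LIN54, MYBL2 and FOXM1 were still lower past the threshold. OFD1-depleted replicate 2 was the lowest of its group for RB1, RBL1, RBL2, LIN54 and RBBP4 and the highest for LIN37, and its summed FPKM was the highest of all samples. The part of these sample differences in the results was not tested, but with either sample left out the log2 fold changes of RB1, RBL1, LIN9, MYBL2 and FOXM1 stayed past the threshold. Over the 18 alternatives, RB1, MYBL2 and FOXM1 were lower in 18 of 18, RBL1 and LIN9 in all 17 that tested them and LIN54 in 14 of 17, whereas RBL2, LIN37 and RBBP4 passed in none and LIN52 in 1 of 17.

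Among the E2F and DP partners, of 7 genes 2 were lower and 1 higher, with a median log2 fold change of -0.23. Of all genes tested, 11.9% were lower and 5.07% higher. E2F1, the prototype activator E2F, had 20.3, 22.4 and 20.9 FPKM in the controls and 6.58, 6.9 and 6.19 FPKM in OFD1-depleted samples (log2 fold change -1.68), and E2F2, another activator, was lower at -1.38 (limma adjusted p = 0.00903, and 0.0555 without control replicate 1). E2F5, a partner of the pocket proteins in DREAM, was the 1 gene of the list that rose, from 2.93, 2.86 and 3.4 FPKM to 7.04, 6.97 and 6.61 FPKM, with no overlap and a log2 fold change of 1.14 (standard error 0.149, limma adjusted p = 0.00039). E2F4, the other DREAM partner, had means of 26.3 and 23.6 FPKM (adjusted p = 0.453), and E2F3, TFDP1 and TFDP2 did not pass the test either. E2F4 was thus the more abundant DREAM E2F in both groups.

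Kinases, cyclins and inhibitors that set the phosphorylation of the pocket proteins counted 14 tested genes of 16. Of these, 8 were lower and 2 higher, against 11.9% and 5.07% of all genes tested, with a median of -0.63. CDK6, a G1 kinase of RB, had 11.0, 9.45 and 10.1 FPKM in the controls and 2.77, 1.76 and 3.24 FPKM in OFD1-depleted samples (log2 fold change -1.98), whereas its paralogue CDK4 had means of 67.6 and 76.9 FPKM (adjusted p = 0.408). CCNE2, a cyclin E gene, fell by 2.47 on the log2 scale, CDK2 by 0.79 and CCNA2 by 1.02. The INK4 genes CDKN2C and CDKN2D fell by 1.40 and 1.16. The other calls were less firm. CCND1 was lower at -0.47 (limma adjusted p = 0.029) in 12 of 18 alternatives, and CCNE1 at -0.91 (limma adjusted p = 0.0416) in 9 of 17. With a single sample left out, both kept the call only without OFD1-depleted replicate 2, with adjusted p-values up to 0.103 for CCND1 and 0.132 for CCNE1. The inhibitors CDKN1A (p21) and CDKN1B (p27) rose, with log2 fold changes of 0.47 and 0.52 (limma adjusted p = 0.0406 and 0.0173). After scaling to the same total neither was called (adjusted p = 0.0727 and 0.0612), nor without control replicate 1 (0.146 and 0.104), control replicate 3 (0.157 and 0.0866) or OFD1-depleted replicate 1 (0.0914 and 0.0622). CDKN1A also lost its call without control replicate 2 (0.071), with no filter (0.144) and with no variance trend (0.0631). CDKN2A, CDKN2B and CCND3 did not pass the test, and CCND2, listed at 0 in all samples, and CDKN1C were too low to be tested.

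Genes that assemble DREAM or act as corepressors, namely DYRK1A, SIN3A, SIN3B, HDAC1 and HDAC2, gave no call in either direction among 5, with a median of 0.05 and values from -0.43 for SIN3A to 0.11 for SIN3B. Of the paralogues, MYBL1 (A-MYB) was lower at -0.91 (limma adjusted p = 0.00215), RBBP7 and TESMIN did not pass at -0.23 and -0.78, and MYB was too low to be tested. Of 13 genes of other complexes that hold RBBP4, 4 were lower and none higher, with a median of -0.29. The shares of all genes tested were 11.9% lower and 5.07% higher. Both large CAF-1 subunits fell, CHAF1A by 1.45 and CHAF1B by 1.41 on the log2 scale, as did EZH2, the methyltransferase of PRC2, by 1.23 and SAP30 of the SIN3 complex by 0.78. SAP30 lost its call with no filter (limma adjusted p = 0.0971) and without control replicate 2 (0.0589), OFD1-depleted replicate 1 (0.0509) or OFD1-depleted replicate 3 (0.0509). SUZ12, EED and the NuRD genes CHD4, MTA1, MTA2, MTA3, MBD2 and MBD3, and SAP18, did not pass the test, with values from -0.33 to 0.23.

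The target genes of these complexes were lower throughout the lists chosen, which were compiled with earlier results of these samples known. All 20 genes of the G1/S list were lower, with a median of -1.19, and all 25 of the list of G2 and mitosis genes, with a median of -1.28, beside 11.9% of all genes tested. In the G1/S list the smallest p-values were those of RRM2, a ribonucleotide reductase subunit (log2 fold change -2.14), and CCNE2. CCNE2 also counts among the kinases, cyclins and inhibitors above, so the same fall enters both lists. In the list of G2 and mitosis genes they were those of TPX2, a spindle assembly factor at -1.97, and BUB1, a spindle checkpoint kinase at -1.54. The median of the 10 regulators, -0.86, lay nearer to 0 than that of either list of targets, and the genes of these lists that rose past the threshold were E2F5, in all its alternatives, and CDKN1A and CDKN1B, in 11 and 14 of 18. Of the targets, RRM1 and CKS2, named after their values were seen, were lower in 17 and 16 of 18 alternatives.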

How the data were processed

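RNA-seq of 3 control and 3 OFD1-depleted samples was analysed, with groups and replicate numbers from the labels. By the methods and the submitters' processing notes, the authors mapped read pairs to GRCh38 from Ensembl with HISAT2 (2.0.5) and deposited FPKM per gene from StringTie. FPKM is divided by transcript length and by the mapped fragments of each sample, so a few abundant genes can shift the rest, and tests for counts were not applied to these values. All 6464 entries on alternative or patch contigs held 0 and were left out.

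Genes whose mean reached 1 FPKM were compared with limma (3.58.1, R 4.3.3) with a variance trend on log2(FPKM + 0.1), two-sided, with Benjamini-Hochberg adjustment over the 12025 genes tested at 0.05. The pseudocount understates the change of low genes. Single values were also compared by exact permutation (Python 3.11.15, scipy 1.17.1). The 10 genes and all lists were chosen with earlier results of these data known. All 10 genes and the list genes other than targets could be named, and of the targets the 2 with the smallest p-values per list, with any that did not fall. The 19 alternatives included a pseudocount of 1 or of 0.01, dropping the filter or raising it to 5 FPKM, scaling by TPM, median-of-ratios, quantiles or totals without mitochondrial genes, no trend, array weights, the replicate block, protein-coding genes alone, each sample left out, and a shorter promoter window.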

Additional observations from a re-analysis of the deposited data

How the results depend on the processing

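Of 176 fold changes of the 10 genes under the alternatives, 166 kept their sign and their side of the threshold. With no filter on low values, 823 genes were lower and 260 higher, and LIN54 was not called at -0.93. The filter at 5 FPKM tested fewer genes and left 3 of the 10 lower, since RBL1, LIN9, LIN52 and LIN54 have lower means. TPM scaling gave 268 higher genes and called LIN52 at -0.70, quantile normalization gave 1084 higher genes, and array weights gave 2263 lower and 1693 higher genes. RBBP4 changed sign to 0.05 with median-of-ratios scaling, 0.066 with quantile normalization and 0.059 with array weights, never past the threshold. With a sample left out, 867 to 1741 genes were lower and 244 to 1077 higher, LIN54 ranged from -1.07 to -0.80 and RBBP4 from -0.054 to 0.084. Among kinases, cyclins and inhibitors, the count of higher genes, 2 as reported, was 0 after TPM scaling and ranged from 0 to 2 with a sample left out. The cause of these changes was not tested. Same-numbered samples correlated in their deviations at r = 0.058, 0.048 and 0.011, so the numbers were not read as pairs, and control replicate 3 correlated best with OFD1-depleted replicate 2 (r = 0.026). With the replicate block, 1534 genes were lower and 762 higher, and 6 of the 10 genes were lower. Without read counts, the precision that depth gives to single values cannot be stated.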
